A study of Mus musculus with 9 samples.

Results

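The genes described here were listed by the authors in both of their comparisons of mouse thalamus, stroke against sham and mmpp against stroke, so each differed at least 2-fold after stroke and again at least 2-fold between mmpp and stroke. They were chosen by those measured values, which also fix most of what can be seen in them: a gene that entered had already moved, in nearly all cases back towards sham. Of 4277 genes in either table, 4071 were listed for stroke against sham, 1021 were listed for mmpp against stroke, and 815 were in both. Of these 815, 753 had a mean above the floor of 0.0001 TPM in all 3 groups and are the members, and the other 62 had at least 1 mean at the floor. What neither table gives is the ratio of mmpp to sham. It was computed from the mean TPM values (a share of all transcripts, scaled by transcript length) and is described here to show which genes ended near sham, which stayed above or below it, and which went past it.

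Thalamic tissue of wild-type (WT) C57/BL mice was sampled on day 7 from 3 groups, mmpp, stroke and sham, with 3 samples each (9 in all). The mice of the study underwent photothrombosis, a clotting of vessels by a dye under light, and injection of melanin nanozyme, particles that mimic enzymes. The labels do not spell out mmpp, do not give the groups that were injected, and leave it unstated if 1 animal or several went into a sample. All 3 groups share the tissue, the genotype and the day. Every TPM value below is the authors' mean of 3 samples, and the tables used here hold no value per library. The labels name a table of counts per sample, which was not analysed here. No SD, no interval, no test of mmpp against sham, no statement on overlap between samples and no depth is therefore given, and a ratio of means below may rest on a single sample.

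After a cortical infarct the thalamus is injured at a distance, because relay neurons lose the cortex they project to. Microglia there take up debris, enlarge their lysosomes, divide and express lipid-handling genes such as Apoe, Spp1 and Gpnmb, while astrocytes react and neurons lose transcripts for channels and receptors. Heat shock chaperones and immediate early genes such as Fos report on protein folding load and on neuronal activity, and cholesterol synthesis genes serve membrane and myelin upkeep.

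Promoters are shown for 5 members that ended on opposite sides of sham. Spp1, Ctss and Bcl2a1b, genes of phagocytes, were higher after stroke and still above sham in mmpp, and Hspa1a and Hspa1b, which encode the inducible chaperone HSP70, were lower after stroke and still below sham in mmpp. Each sequence is the RefSeq window of 250 bases before to 50 bases after the gene's start in build GRCm38.p6, printed 5′ to 3′ on the gene's own strand. Capitals mark GAGGAAGT, the core letters bound by PU.1 (a transcription factor of microglia and macrophages), in the first 3, and GAANNTTC, the paired half-site of heat shock factors, in the last 2. Spp1 lies at chr5:104434861-104435160 on the plus strand, Ctss at chr3:95526536-95526835 on the plus strand, with its motif on the opposite strand, and Bcl2a1b at chr9:89199023-89199322 on the plus strand. Hspa1a lies at chr17:34972107-34972406 and Hspa1b at chr17:34959189-34959488, both on the minus strand.
Spp1: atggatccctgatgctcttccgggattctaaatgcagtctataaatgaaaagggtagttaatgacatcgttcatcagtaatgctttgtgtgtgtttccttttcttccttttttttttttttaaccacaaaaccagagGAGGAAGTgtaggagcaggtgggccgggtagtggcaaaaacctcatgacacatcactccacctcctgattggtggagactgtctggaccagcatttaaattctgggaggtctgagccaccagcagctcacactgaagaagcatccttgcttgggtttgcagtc
Ctss: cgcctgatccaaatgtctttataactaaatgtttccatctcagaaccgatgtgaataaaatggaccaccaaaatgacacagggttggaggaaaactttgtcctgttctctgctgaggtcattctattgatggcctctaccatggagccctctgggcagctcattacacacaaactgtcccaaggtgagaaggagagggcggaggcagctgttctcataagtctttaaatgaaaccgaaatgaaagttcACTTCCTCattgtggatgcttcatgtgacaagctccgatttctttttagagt
Bcl2a1b: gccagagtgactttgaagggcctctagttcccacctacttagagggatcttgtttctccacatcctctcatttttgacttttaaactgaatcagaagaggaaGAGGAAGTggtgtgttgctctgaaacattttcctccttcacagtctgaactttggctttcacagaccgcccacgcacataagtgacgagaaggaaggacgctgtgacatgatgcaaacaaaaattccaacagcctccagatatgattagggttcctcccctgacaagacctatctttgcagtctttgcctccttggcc
Hspa1a: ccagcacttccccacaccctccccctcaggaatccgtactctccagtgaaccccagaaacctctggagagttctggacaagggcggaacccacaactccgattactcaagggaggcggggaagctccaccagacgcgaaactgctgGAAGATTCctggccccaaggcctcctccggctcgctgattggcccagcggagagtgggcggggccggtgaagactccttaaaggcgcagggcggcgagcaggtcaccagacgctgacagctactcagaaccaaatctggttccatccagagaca
Hspa1b: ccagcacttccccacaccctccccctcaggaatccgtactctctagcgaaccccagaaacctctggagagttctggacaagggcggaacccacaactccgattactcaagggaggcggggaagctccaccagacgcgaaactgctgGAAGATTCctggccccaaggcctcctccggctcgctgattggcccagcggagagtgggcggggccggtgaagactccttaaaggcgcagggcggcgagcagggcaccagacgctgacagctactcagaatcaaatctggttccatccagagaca
Both strands were searched for both motifs. The Ctss window also holds the heat shock letters, directly before its capitals and without overlap, and no other window shown holds the motif of the other set. Among 27025 genes with such a window, 887 (3.28%) held GAGGAAGT and 2149 (7.95%) held GAANNTTC. The windows of Hspa1a and Hspa1b shared 296 of 300 bases, and the genes themselves are near-identical, so reads of one can be counted for the other. Only 518 of the 753 members (68.8%) matched the promoter table, under the 80% needed, so a check of motif shares over the members is void. Every window shown holds the motif marked in it, so these windows do not stand for the members at large. Of 4 heat shock members with a window, only Hspa1a and Hspa1b are shown. A motif match describes letters and is not a bound site.

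Most genes that were higher after stroke were still above sham in mmpp, and most that were lower after stroke ended near sham. Of 586 members higher after stroke, 472 (80.5%) were still above sham in mmpp by a log2 ratio of 0.5 or more, 102 (17.4%) were within 0.5 of sham and 12 (2.05%) were below sham by 0.5 or more. Of 167 members lower after stroke, 133 (79.6%) were within 0.5 of sham, 29 (17.4%) were still below and 5 (2.99%) were above. Over all members, 235 (31.2%) ended near sham, 501 (66.5%) stayed on the stroke side and 17 (2.26%) went past. In the authors' deposited tables a q-value under 0.05 was met by 66.6% of all genes listed for stroke against sham and by 0.784% of those listed for mmpp against stroke. It was met by 659 members in the first comparison, by 5 in the second and by 4 in both. Since the members were chosen by these contrasts, nothing is read from that. Nearly every member thus stands in the mmpp comparison by an unadjusted p-value under 0.05.

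The median member higher after stroke stood 3.07-fold above sham in mmpp, a log2 ratio of 1.62 with quartiles of 0.70 and 2.79, against 9.16-fold above sham in stroke. The median member lower after stroke stood at a log2 ratio of -0.22 to sham in mmpp, with quartiles of -0.40 and -0.02, against -1.64 in stroke. In mmpp, 235 members higher after stroke were still at least 4-fold above sham and 53 were at least 16-fold above. The mmpp mean lay between the sham and stroke means for 657 members, beyond sham by any amount for 94, and farther from sham than stroke for 2. Members took 3.598% of all TPM in mmpp, 8.24% in stroke and 1.62% in sham. Transcripts outside the members shifted by a log2 ratio of -0.03 between mmpp and sham and of -0.10 between stroke and sham, as shares of a fixed total.

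**Figure D1:**
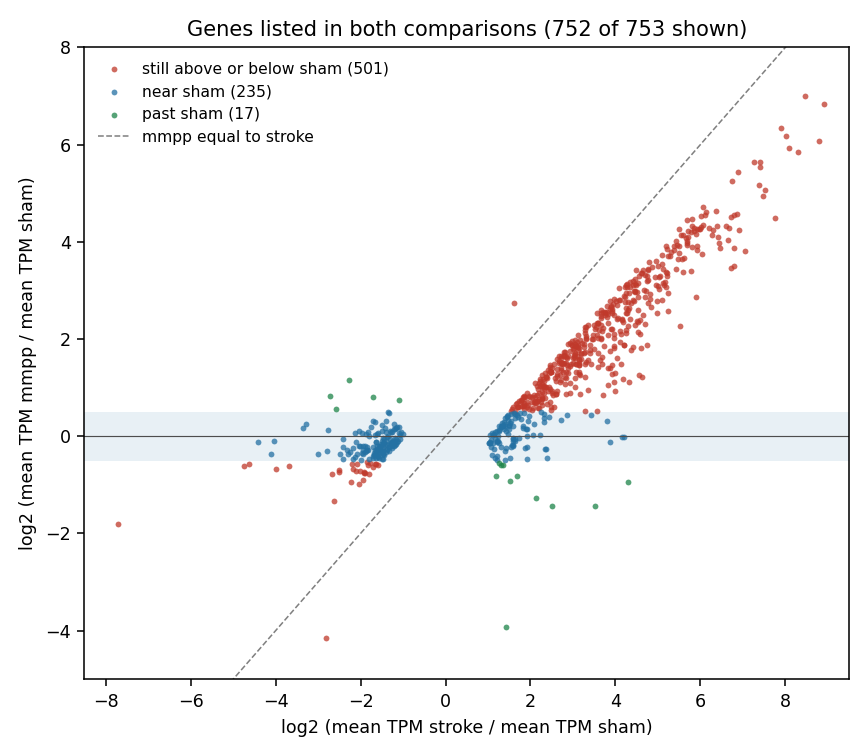
Each point is a member, with its log2 ratio of mean TPM in mmpp over sham on the vertical axis and in stroke over sham on the horizontal axis. The band marks a log2 ratio of mmpp to sham within 0.5, the dashed line marks equal mmpp and stroke means, and 1 member with a larger stroke ratio lies outside the plotted range; members lower after stroke sit mostly in the band and members higher after stroke fan out above it.

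Where a gene ended went with the size of its stroke difference. Among members higher after stroke by a log2 ratio of 1 to 1.5, 51 of 56 (91.1%) ended near sham. From 1.5 to 2 it was 33 of 66, from 2 to 3 it was 13 of 135 (9.63%), from 3 to 4 it was 3 of 129, and at 4 or more it was 2 of 200. Among members lower after stroke the counts near sham were 59 of 60 (98.3%) from 1 to 1.5, 50 of 63 (79.4%) from 1.5 to 2, 19 of 34 (55.9%) from 2 to 3, 2 of 4 from 3 to 4 and 3 of 6 at 4 or more. Part of this is built in. A member differed at least 2-fold between mmpp and stroke, so 1 whose absolute log2 stroke ratio was under 1.5 had no room to stay 0.5 or more on the stroke side, and 110 of those 116 members were near sham. Of the 637 members with an absolute log2 stroke ratio of 1.5 or more, 125 were near sham. The mmpp and sham values of 1 gene are also set against the same stroke libraries, so an error in the stroke mean enters both listings with opposite sign.

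**Figure D2:**
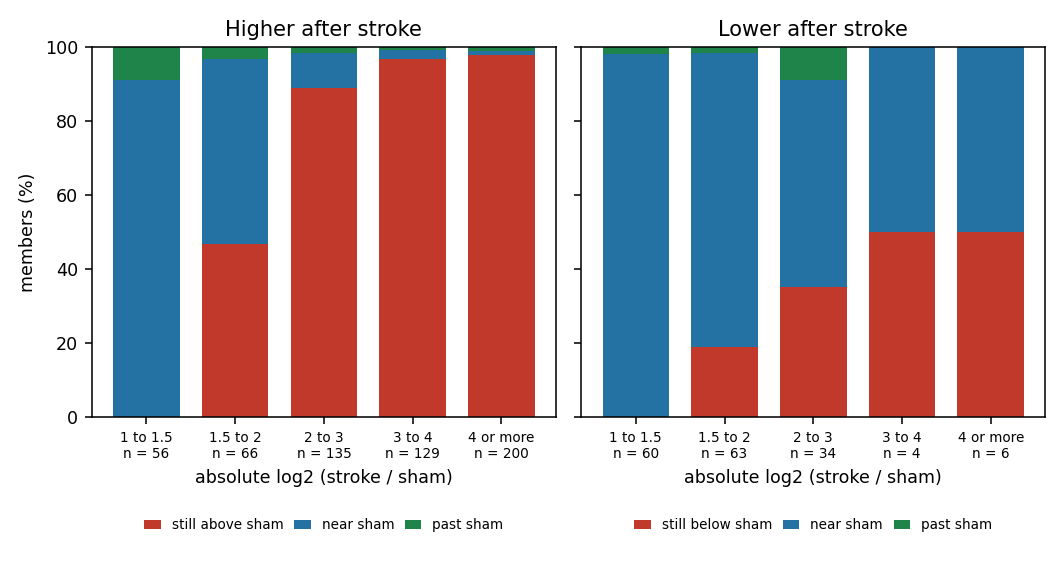
Bars give the percent of members that stayed on the stroke side of sham, ended near sham or went past it, by the absolute log2 ratio of stroke to sham, for members higher (left) and lower (right) after stroke. The share still above sham reaches 98% of members higher by a log2 ratio of 4 or more, and n below each bar is the number of members.

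The difference between directions depended on the scale. On the log2 scale a median of 51.7% of the stroke difference was left in mmpp for members higher after stroke (quartiles 32.9% and 64.9%) and 12.9% for members lower after stroke (1.39% and 22.4%). On the TPM scale the medians were 24.1% (14.6% and 32.4%) and 21.6% (2.45% and 35.02%). The TPM medians of the 2 directions lay close together, and the log2 medians did not. Part of the log2 gap is built in. Except for Zfp420 and Mfrp, mmpp lay at least 1 log2 unit from stroke towards sham. The smaller the stroke difference, the lower was thus the log2 share that could be left. The median log2 stroke ratio was 3.20 for members higher and -1.64 for members lower after stroke. The median sham level was 0.763 TPM for members higher after stroke and 10.9 TPM for members lower after stroke, and all 114 members with a sham mean under 0.1 TPM were of the first kind. For every member higher after stroke except Zfp420, listing itself keeps the TPM share left under 50%, since the mmpp mean was at most 0.5 times the stroke mean.

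**Figure D3:**
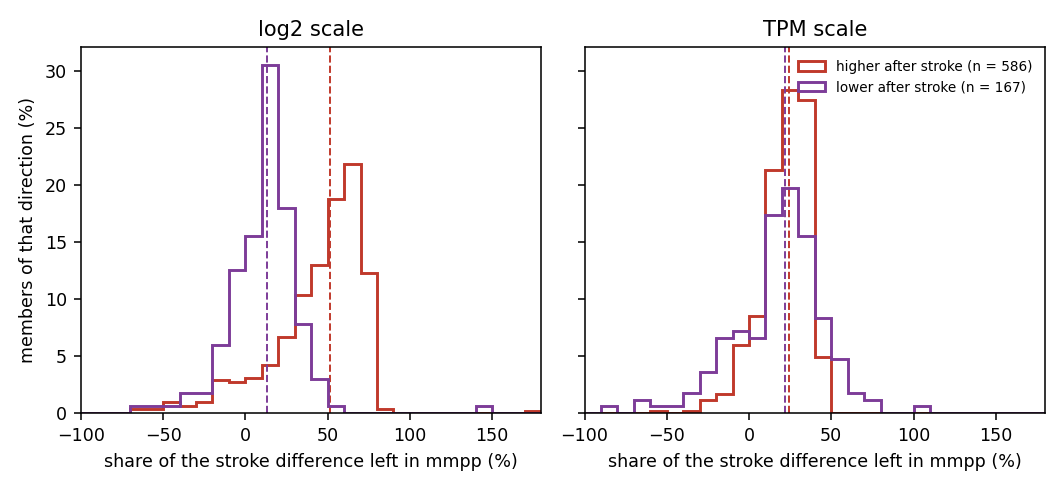
The horizontal axes give the share of the stroke difference left in mmpp in percent, on the log2 scale (left) and the TPM scale (right), and the vertical axis gives the percent of members higher or lower after stroke in each bin of 10 percentage points. Dashed lines are medians, 51.7% and 12.9% on the log2 scale and 24.1% and 21.6% on the TPM scale; 1 member on the log2 scale and 4 on the TPM scale lie outside the plotted range.

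Microglial and lipid-handling genes had the highest median of the lists with at least 3 members. All 13 members of the list of disease-associated microglia and lipid handling (37 genes), with Lilrb4a on 2 identifiers, were still above sham. Their median log2 ratio was 4.24, beside 1.62 for all members higher after stroke. Their summed level was 16991 TPM in mmpp, 47198 TPM in stroke and 4483 TPM in sham. In bulk tissue, fewer cells of a type and less RNA per cell cannot be told apart, here or in any list below. Each list count of members still above sham stands beside 80.5% for all members higher after stroke. A share close to that is no result about the list. Spp1, the secreted matrix protein osteopontin, stood at 1245 TPM in mmpp, 5764 TPM in stroke and 34.7 TPM in sham. Gpnmb, a membrane glycoprotein of lysosome-rich phagocytes, stood at 376 TPM in mmpp, 1158 TPM in stroke and 7.58 TPM in sham. These 2 remained 35.9-fold and 49.6-fold above sham in mmpp. Apoe, the main lipid carrier of the brain, had a far higher sham level and stood at 13662 TPM in mmpp, 35055 TPM in stroke and 4212 TPM in sham, 3.24-fold above sham in mmpp. Lpl, which releases fatty acids from lipoproteins, stood at 31.9 TPM in mmpp, 132 TPM in stroke and 1.69 TPM in sham, and Ch25h, which makes 25-hydroxycholesterol, at 23.9 TPM in mmpp, 59.9 TPM in stroke and 1.08 TPM in sham. Abca1, the cholesterol exporter, stood at 10.3 TPM in mmpp, 34.7 TPM in stroke and 2.43 TPM in sham, so lipid release, uptake and export genes all remained above sham. Igf1, a growth factor that microglia make after injury, stood at 50.4 TPM in mmpp, 144 TPM in stroke and 3.30 TPM in sham.

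Lysosomal and phagocytic genes were also all still above sham. The 11 members of that list (42 genes) had a median log2 ratio of 3.29 and a median of 70.9% of the log2 stroke difference left. Cd68, a lysosomal membrane protein of phagocytes, stood at 814 TPM in mmpp, 2398 TPM in stroke and 34.9 TPM in sham. The cathepsin gene Ctss stood at 760.3 TPM in mmpp, 1633 TPM in stroke and 118 TPM in sham, and Ctsl at 346 TPM in mmpp, 776 TPM in stroke and 79.7 TPM in sham. Msr1, a scavenger receptor, stood at 5.76 TPM in mmpp, 25.7 TPM in stroke and 0.0948 TPM in sham. Its sham mean was under 0.1 TPM, so the 60.8-fold ratio of mmpp to sham is uncertain in size. Atp6v0d2, a proton pump subunit, kept less, at 2.33 TPM in mmpp, 21.8 TPM in stroke and 0.166 TPM in sham and 54.2% of its log2 difference left. Fewer homeostatic microglial genes were members: the 5 genes Itgam, Gpr34, P2ry13, Sall1 and Runx1, out of 27 on that list, were all still above sham. Gpr34, a lysophosphatidylserine receptor, stood at 15.2 TPM in mmpp, 42.5 TPM in stroke and 2.72 TPM in sham. Sall1, a transcription factor that maintains microglial identity, was nearest to sham at 6.65 TPM in mmpp, 15.6 TPM in stroke and 3.81 TPM in sham. Of the 27 homeostatic genes, 25 were listed after stroke and 5 in mmpp, so most of them have no mmpp value here.

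**Figure D4:**
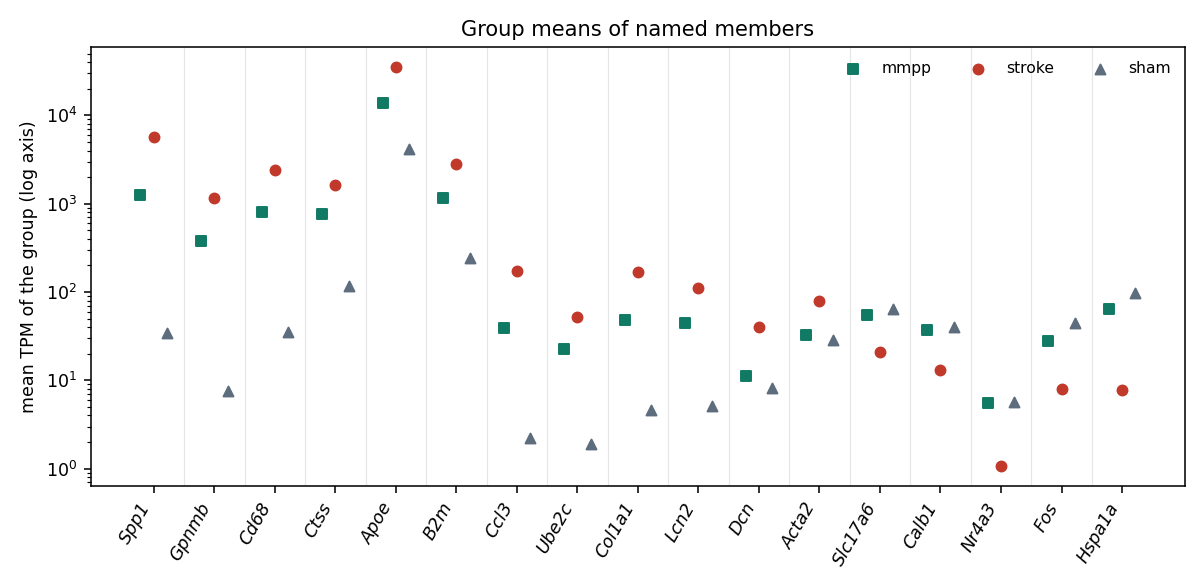
Mean TPM of the mmpp, stroke and sham groups on a log axis for 17 members, with 1 point per group mean and no error bars because the tables used here hold none. Genes of phagocytes and of cell division on the left keep mmpp between stroke and sham, Acta2 and Slc17a6 have mmpp near sham, and Fos and Hspa1a have mmpp somewhat below sham.

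Members among secreted signals and their receptors also stayed above sham. They were 4 of 30 chemokine, 7 of 40 cytokine and 9 of 73 receptor genes, so most genes of these lists have no mmpp value here. All 4 chemokine members were still above sham (median log2 ratio 3.93), as were all 7 cytokine members (2.56) and all 9 cytokine and chemokine receptor members (2.31). Ccl3 and Ccl4, which attract leukocytes, stood at 39.3 TPM in mmpp, 171 TPM in stroke and 2.23 TPM in sham, and at 24.2 TPM in mmpp, 79.9 TPM in stroke and 1.78 TPM in sham. Ccl2, the ligand of Ccr2, stood at 5.19 TPM in mmpp, 11.6 TPM in stroke and 0.572 TPM in sham. The receptors themselves were rarer. Ccr2 stood at 0.353 TPM in mmpp, 1.86 TPM in stroke and 0.0714 TPM in sham, and Ccr1 at 0.435 TPM in mmpp, 1.62 TPM in stroke and 0.0292 TPM in sham. Tgfb1, an anti-inflammatory cytokine that microglia need, was the most abundant cytokine member at 87.4 TPM in mmpp, 221 TPM in stroke and 14.6 TPM in sham. The inflammatory cytokines Tnf and Il1b stayed near or under 1 TPM in mmpp: Tnf stood at 0.888 TPM in mmpp, 3.55 TPM in stroke and 0.108 TPM in sham, and Il1b at 0.708 TPM in mmpp, 1.68 TPM in stroke and 0.120 TPM in sham. Il1rn, the antagonist of the IL-1 receptor, stood at 1.65 TPM in mmpp, 4.01 TPM in stroke and 0.110 TPM in sham, above Il1b in mmpp on this per-length scale. Csf2ra, a receptor chain for GM-CSF, kept less of its difference, at 54.1 TPM in mmpp, 183 TPM in stroke and 21.6 TPM in sham and 43.0% of the log2 difference left.

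Members among innate sensors, interferon-induced genes and antigen presentation genes ended above sham with few exceptions. They were 22 of 66, 12 of 93 and 6 of 40 genes on these lists, of which 50, 71 and 31 were listed after stroke. Most genes of these lists thus have no mmpp value here. The share still above was 80.5% for all members higher after stroke. Of 22 members for innate sensing, inflammasome and necroptosis, 21 were still above sham (median 2.52) and Clec9a, a lectin of dendritic cells, was near it at 0.119 TPM in mmpp, 0.377 TPM in stroke and 0.106 TPM in sham. Casp1, the protease that inflammasomes activate, stood at 4.79 TPM in mmpp, 16.2 TPM in stroke and 0.497 TPM in sham. Nlrp3, an inflammasome sensor, stood at 2.16 TPM in mmpp, 5.27 TPM in stroke and 0.536 TPM in sham, and Aim2, a sensor of cytosolic DNA, at 4.61 TPM in mmpp, 16.7 TPM in stroke and 1.07 TPM in sham. Casp8, Ripk3 and Mlkl, which act at the branch between apoptosis and necroptosis, were all still above sham, with log2 ratios of 2.02, 2.88 and 1.27. Of 12 interferon-induced members 11 were above sham (median 2.25), with Oasl2 at 15.97 TPM in mmpp, 32.3 TPM in stroke and 4.09 TPM in sham. Ifitm1, which restricts viral entry, was closer to sham at 15.9 TPM in mmpp, 39.8 TPM in stroke and 10.5 TPM in sham, and Trim30b was near it at a log2 ratio of 0.34. Of 6 antigen presentation members 5 were above sham (median 1.504). B2m, the shared light chain of MHC class I, stood at 1149 TPM in mmpp, 2837 TPM in stroke and 242 TPM in sham. Class II genes followed: Cd74, the invariant chain, stood at 101 TPM in mmpp, 299 TPM in stroke and 40.8 TPM in sham, and H2-Ab1 at 71.5 TPM in mmpp, 198 TPM in stroke and 17.9 TPM in sham. Ciita, the transcriptional activator of class II genes, was near sham at 0.207 TPM in mmpp, 0.642 TPM in stroke and 0.167 TPM in sham, while its targets were not.

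Receptors of leukocytes formed the largest immune list. Of 25 members for Fc, immunoglobulin-like and leukocyte surface receptors, 23 were still above sham (median 3.19) and 2 were near, Siglece and Itga4. Fcer1g, the signalling chain of Fc receptors, stood at 601 TPM in mmpp, 1543 TPM in stroke and 53.5 TPM in sham. Ly86, a partner of the Toll-like receptor relative Cd180, stood at 215 TPM in mmpp, 643 TPM in stroke and 16.4 TPM in sham, and Cd180 itself at 18.7 TPM in mmpp, 98.9 TPM in stroke and 0.964 TPM in sham. Cd180 kept 64.0% and Ly86 70.2% of the log2 difference. Lilrb4a, an inhibitory immunoglobulin-like receptor, stands on 2 identifiers, and the more abundant one stood at 18.03 TPM in mmpp, 174 TPM in stroke and 0.805 TPM in sham. The 4 complement members are 3 genes out of 29 on the list, since Itgam stands on 2 identifiers and is also on the homeostatic list. All were above sham, among them C3ar1, the receptor for C3a, at 25.3 TPM in mmpp, 66.7 TPM in stroke and 1.43 TPM in sham.

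Of 45 markers of infiltrating or perivascular myeloid cells, 27 were listed after stroke and 9 were members, with a summed level of 191 TPM in mmpp, 659 TPM in stroke and 56.6 TPM in sham. The 8 that were higher after stroke were still above sham, and Lyve1, a marker of perivascular macrophages, was lower after stroke and near sham at 0.275 TPM in mmpp, 0.0486 TPM in stroke and 0.337 TPM in sham. Fn1, fibronectin, kept 32.8% of its log2 difference, at 23.2 TPM in mmpp, 150.0 TPM in stroke and 9.37 TPM in sham. F13a1, a coagulation factor subunit of macrophages, stood at 1.92 TPM in mmpp, 10.01 TPM in stroke and 0.435 TPM in sham. The median share of the log2 difference left was 47.3% in this list and 70.0% in the disease-associated microglial list, a difference that was not tested. Their median log2 stroke ratios were 3.49 and 5.80, and listing lets less of a smaller stroke difference remain, so part of this gap is built in. Cd4 was the only member among 53 lymphocyte markers, at 0.743 TPM in mmpp, 3.04 TPM in stroke and 0.371 TPM in sham. Markers of homeostatic astrocytes, oligodendrocytes and erythrocytes had no member. Whether a shift in cell makeup has a part in any of these values was not tested.

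Genes of matrix, fibroblasts and mural cells ran over a wide range. Of 23 members, out of 127 on the list, 19 were still above sham and 4 near it, at a median log2 ratio of 1.31. All 23 were higher after stroke, and the share still above was close to the 80.5% of all such members. Col1a1, the main fibrillar collagen, stood at 48.1 TPM in mmpp, 169 TPM in stroke and 4.65 TPM in sham, and Postn, a matrix protein of scars, at 2.23 TPM in mmpp, 6.78 TPM in stroke and 0.318 TPM in sham. Both stayed several-fold above sham. Acta2, smooth muscle actin, was near sham at 32.7 TPM in mmpp, 79.6 TPM in stroke and 28.4 TPM in sham. Dcn, the proteoglycan decorin of fibroblasts, was near it too at 11.2 TPM in mmpp, 40.6 TPM in stroke and 8.15 TPM in sham. Bgn, the related proteoglycan biglycan, was not, at 70.3 TPM in mmpp, 192 TPM in stroke and 22.5 TPM in sham. The matrix proteases Mmp3 and Mmp10 had sham means under 0.1 TPM and the largest ratios: Mmp10, a stromelysin, stood at 2.85 TPM in mmpp, 7.78 TPM in stroke and 0.0222 TPM in sham, the highest log2 ratio of all members at 7.002. Fbn1, a microfibril protein, ended slightly below sham at 0.684 TPM in mmpp, 1.80 TPM in stroke and 0.821 TPM in sham, within the band. Lmo2, a transcriptional cofactor of blood vessels and blood cells, stood at 24.2 TPM in mmpp, 176 TPM in stroke and 13.5 TPM in sham, with 22.7% of its log2 difference left.

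Reactive astrocyte members ended much as all members did. Of 8 members, 7 were higher after stroke, and 6 were still above sham, beside 80.5% of all members higher after stroke. Lcn2, a secreted iron-binding protein, stood at 44.3 TPM in mmpp, 111 TPM in stroke and 5.15 TPM in sham. Timp1, an inhibitor of matrix proteases, stood at 25.4 TPM in mmpp, 60.1 TPM in stroke and 2.47 TPM in sham. Nes, an intermediate filament protein, was closer to sham at 8.77 TPM in mmpp, 18.1 TPM in stroke and 4.99 TPM in sham. Amigo2, an adhesion molecule used as a reactive marker, was lower after stroke and near sham at 23.8 TPM in mmpp, 9.80 TPM in stroke and 20.96 TPM in sham, opposite to the direction that its place on the list implies. Ptgs2, an inducible prostaglandin synthase, was near sham at low levels, 0.0655 TPM in mmpp, 0.257 TPM in stroke and 0.0891 TPM in sham. All 4 axon injury members were above sham: Sprr1a, a gene that injured neurons express, stood at 13.9 TPM in mmpp, 39.9 TPM in stroke and 0.570 TPM in sham, and Plaur, the urokinase receptor, at 15.2 TPM in mmpp, 35.1 TPM in stroke and 3.13 TPM in sham.

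Cell division genes were the largest list with 59 members out of 189 genes. Of these, 56 were still above sham and 3 were near it, at a median log2 ratio of 2.54 and a median of 60.9% of the log2 difference left. Their summed level was 196 TPM in mmpp, 511 TPM in stroke and 52.5 TPM in sham. Ube2c, which tags mitotic proteins for breakdown, stood at 22.4 TPM in mmpp, 52.1 TPM in stroke and 1.88 TPM in sham. Birc5, survivin of the chromosomal passenger complex, stood at 19.9 TPM in mmpp, 50.2 TPM in stroke and 1.85 TPM in sham, and Mki67, a general marker of cycling cells, at 1.44 TPM in mmpp, 5.21 TPM in stroke and 0.0309 TPM in sham. Incenp, a partner of Birc5 in the same complex, had a higher sham level and a smaller ratio, at 13.2 TPM in mmpp, 40.5 TPM in stroke and 7.10 TPM in sham. The DNA replication gene Mcm3 stood at 8.09 TPM in mmpp, 20.01 TPM in stroke and 3.05 TPM in sham. Timeless, a replication fork protein, was near sham at 2.75 TPM in mmpp, 6.11 TPM in stroke and 2.57 TPM in sham. Mitotic and replication genes were thus both found above sham.

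Members for oxidant production, antioxidants and iron were nearly all still above sham. These were 6 of 7 members, out of 70 genes on the list, and the median log2 ratio was 3.07. The share still above was 80.5% for all members higher after stroke. Cybb, Ncf4 and Rac2 encode parts of the phagocyte NADPH oxidase, which makes superoxide. Cybb, its catalytic subunit, stood at 4.68 TPM in mmpp, 13.9 TPM in stroke and 0.240 TPM in sham. Ncf4 stood at 18.2 TPM in mmpp, 41.96 TPM in stroke and 2.17 TPM in sham, and Rac2 at 37.2 TPM in mmpp, 89.3 TPM in stroke and 3.79 TPM in sham. The log2 share left was 73.1%, 71.8% and 72.3% for these 3. Ftl1, the ferritin light chain that stores iron, stood at 2161 TPM in mmpp, 4565 TPM in stroke and 651 TPM in sham.

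Among the 102 members higher after stroke that ended near sham, no gene list supplied more than 4. They were 75.5% protein-coding, beside 89.4% of the 472 still above sham. Arpc3, a subunit of the actin-branching Arp2/3 complex, was the most abundant at 387 TPM in mmpp, 802 TPM in stroke and 295 TPM in sham, while Actb, the actin it acts on, lay just outside the band at 1301 TPM in mmpp, 2632 TPM in stroke and 883 TPM in sham. The non-coding RNAs Rn7s1 and Rn7s2 of the signal recognition particle, and Rn7sk, which restrains transcription elongation, were higher after stroke and slightly below sham in mmpp. Rn7s1 stood at 165 TPM in mmpp, 522 TPM in stroke and 195 TPM in sham, Rn7s2 at 165 TPM in mmpp, 537 TPM in stroke and 203 TPM in sham and Rn7sk at 49.2 TPM in mmpp, 159 TPM in stroke and 52.9 TPM in sham. Rn7s1 and Rn7s2 are near-identical, and a further copy, Rn7s6, went the other way, at 7.53 TPM in mmpp, the floor in stroke and 14.3 TPM in sham. Pfkfb3, an activator of glycolysis, stood at 8.54 TPM in mmpp, 28.6 TPM in stroke and 9.67 TPM in sham, and Ndufa4l2, a mitochondrial gene of low oxygen, at 24.5 TPM in mmpp, 58.4 TPM in stroke and 18.8 TPM in sham. Taok1, a kinase of stress signalling, had q-values under 0.05 in both of the authors' deposited tables and stood at 0.177 TPM in mmpp, 3.25 TPM in stroke and 0.178 TPM in sham, with mmpp level with sham and both near 0.

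Several receptor genes of neurons were lower after stroke and ended near sham. All 7 members of the inhibitory and neuropeptide list (77 genes) did so, at a median log2 ratio of 0.02, beside 79.6% of all members lower after stroke. Of these 7, 3 (Hcrtr1, Oprl1 and Npy1r) had an absolute log2 stroke ratio under 1.5, where listing left no room to stay below. Calb1, a calcium buffer and not a receptor, stood at 37.5 TPM in mmpp, 12.95 TPM in stroke and 40.6 TPM in sham. Calb1 was also the only member among 63 genes of other brain regions. Of those 63 genes, 9 were listed after stroke and 6 in mmpp, so most of them have no mmpp value here. Oprl1, the nociceptin receptor, stood at 23.4 TPM in mmpp, 9.30 TPM in stroke and 25.8 TPM in sham, and Npy1r, a neuropeptide Y receptor, at 5.75 TPM in mmpp, 2.66 TPM in stroke and 7.42 TPM in sham. Hcrtr1, Mc3r, Oprk1 and Npy5r, receptors for orexin, melanocortin, dynorphin and neuropeptide Y, ended within a log2 ratio of 0.16 above sham. In the authors' pathway of neuroactive ligands and receptors, all 10 members lower after stroke ended near sham, the same 3 among them. Of 13 members higher after stroke, 11 (84.6%) were still above and 2 were near, beside 80.5% still above for all members higher after stroke. Shares this close to those of all members are no result about the pathway. The lower ones were neuronal receptors, receptor subunits and peptides, such as Glrb and Grp. The higher ones included receptors of microglia, such as P2ry13, P2rx4 and C3ar1. Htr2b, a serotonin receptor of the same pathway, kept one of the largest ratios at 3.63 TPM in mmpp, 12.95 TPM in stroke and 0.0502 TPM in sham, from a sham mean under 0.1 TPM.

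Thalamic relay genes and channels ended near sham or modestly below. Slc17a6, the vesicular glutamate transporter of thalamic relay neurons, stood at 55.3 TPM in mmpp, 20.7 TPM in stroke and 63.7 TPM in sham. Gbx2, a transcription factor of the developing thalamus, stayed below at 23.5 TPM in mmpp, 11.1 TPM in stroke and 36.2 TPM in sham. Both thalamic markers were detected in every group. Gabra3, a subunit of GABA-A receptors, was near sham at 23.5 TPM in mmpp, 11.4 TPM in stroke and 32.3 TPM in sham. Kcnd2, a channel of the A-type potassium current, was near it at 9.48 TPM in mmpp, 3.60 TPM in stroke and 11.5 TPM in sham, and Kcnab1, a potassium channel subunit, was below at 12.6 TPM in mmpp, 5.09 TPM in stroke and 20.6 TPM in sham. Kcnn4 and Kcnk6, potassium channels that were higher after stroke, were still above sham with log2 ratios of 1.501 and 1.65. Abundant genes that ended near sham, chosen after their values were seen, included Resp18, a protein of secretory granules, at 718 TPM in mmpp, 271 TPM in stroke and 742 TPM in sham, and Nptxr, the neuronal pentraxin receptor, at 228 TPM in mmpp, 103 TPM in stroke and 248 TPM in sham. Only 6 of 153 synapse and channel genes and 2 of 40 thalamic genes were members, so these values do not describe the lists as a whole.

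The genes that stayed below sham did so by small ratios. Of the 29, only 3 were 2-fold or more below. Heat shock genes were among the 29: Hspa1a stood at 64.3 TPM in mmpp, 7.69 TPM in stroke and 98.6 TPM in sham, and Hspa1b at 46.97 TPM in mmpp, 4.69 TPM in stroke and 74.9 TPM in sham. Stroke held the lowest mean of both, and mmpp stood at log2 ratios of -0.62 and -0.67 to sham. Dnajb1, the cochaperone of HSP70, stood at 70.5 TPM in mmpp, 27.2 TPM in stroke and 116 TPM in sham. Dnajb4, of the same family, was higher after stroke and near sham at 3.83 TPM in mmpp, 11.8 TPM in stroke and 5.11 TPM in sham. The immediate early gene Fos stood at 27.7 TPM in mmpp, 7.89 TPM in stroke and 44.7 TPM in sham, below sham, and Fosb at 6.17 TPM in mmpp, 1.61 TPM in stroke and 8.58 TPM in sham, just inside the band. Nr4a3, a nuclear receptor induced by activity, was level with sham at 5.56 TPM in mmpp, 1.07 TPM in stroke and 5.75 TPM in sham. Members were 4 of 45 heat shock and 3 of 44 immediate early genes, so most genes of these lists have no mmpp value here. Genes of cholesterol synthesis, chosen after their values were seen, stayed slightly below. Fdft1, the squalene synthase, stood at 62.3 TPM in mmpp, 29.3 TPM in stroke and 92.4 TPM in sham, and Msmo1, a sterol oxidase, at 44.1 TPM in mmpp, 18.7 TPM in stroke and 64.5 TPM in sham. Apoe, Lpl, Abca1, Cd36 and Lipa, members of the authors' cholesterol metabolism pathway, were higher after stroke and still above sham. Adra2b, an adrenergic receptor, did not end near sham either, at 3.23 TPM in mmpp, 1.31 TPM in stroke and 8.08 TPM in sham. Atcay, a neuronal protein whose loss causes ataxia, stood at 137 TPM in mmpp, 60.98 TPM in stroke and 232 TPM in sham, and Luzp1, a cytoskeletal protein, at 11.7 TPM in mmpp, 5.64 TPM in stroke and 23.1 TPM in sham.

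**Figure D5:**
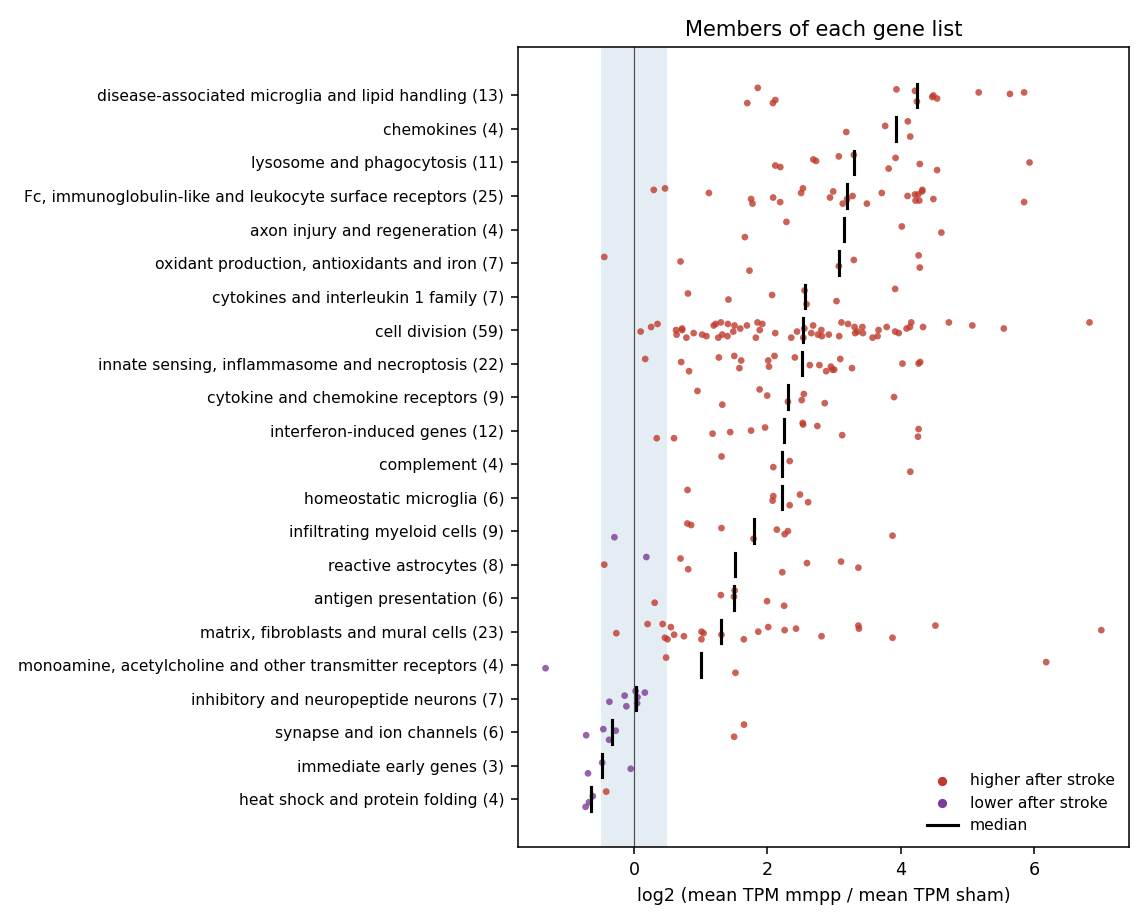
Points are members of each gene list with at least 3 members, plotted by log2 ratio of mean TPM in mmpp over sham, red for higher and purple for lower after stroke, with the number of members in brackets. Black lines are medians, which run between 4.24 for disease-associated microglia and -0.65 for heat shock genes, and the band marks ratios within 0.5 of sham.

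Few members went past sham. With all means of at least 1 TPM, 3 that were higher after stroke ended below sham by 0.5 or more. Adam9, a membrane-bound protease, stood at 4.31 TPM in mmpp, 17.2 TPM in stroke and 7.55 TPM in sham, Arhgap17, a GTPase-activating protein, at 4.59 TPM in mmpp, 17.04 TPM in stroke and 6.92 TPM in sham, and Brox, a protein of the nuclear envelope, at 2.62 TPM in mmpp, 9.21 TPM in stroke and 3.84 TPM in sham. Fyttd1, an mRNA export adaptor, was the only such member on the other side, lower after stroke and above sham in mmpp, at 6.02 TPM in mmpp, 1.68 TPM in stroke and 3.61 TPM in sham. The other 13 each had a mean under 1 TPM, and the lowest ratio among those higher after stroke, -3.93 for Zfp715, rests on 0.0821 TPM in mmpp, 3.32 TPM in stroke and 1.25 TPM in sham. Only 2 members moved the same way in both comparisons. Mfrp, a membrane protein and the only member among 38 choroid plexus and ependyma genes, stood at 0.517 TPM in mmpp, 1.30 TPM in stroke and 9.16 TPM in sham, and Zfp420, a zinc finger gene, at 3.08 TPM in mmpp, 1.41 TPM in stroke and 0.463 TPM in sham. Of those 38 genes, 21 were listed after stroke and 2 in mmpp, so how much choroid plexus each group held cannot be followed in mmpp from these tables.

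The edge of the band separates genes that hardly differ. Just inside it were Gm10252 and Slc5a7, at log2 ratios of 0.49 and 0.49, and just outside were Adamts14 and 9930111J21Rik2, at 0.503 and 0.51. On the lower side, Tnfsf13os and Gm12709 were inside at -0.499 and -0.49, and Ptpn4 and Msmo1 were outside at -0.52 and -0.55. The members differed from the other genes listed for stroke against sham in size, as their selection implies. The median log2 ratio of stroke to sham was 3.20 for members higher after stroke and 1.87 for 1709 other listed genes, and -1.64 for members lower after stroke and -1.28 for 1406 others. Members made up 23.7% of the genes listed higher after stroke and 10.4% of those listed lower.

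The 62 genes with a mean at the floor have no ratio. Sham was at the floor for 51 of them, of which mmpp was also at the floor for 27 and above it for 24. Among these 24 were Bub1, a kinase of the mitotic checkpoint, at 0.561 TPM in mmpp and 1.82 TPM in stroke, and Mmp13, a collagenase, at 1.08 TPM in mmpp and 7.46 TPM in stroke. Of the 30 genes with mmpp at the floor, 3 had a sham mean above it. A mean at the floor can be a failed estimate, and it is given only as listed there.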

How the data were processed

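Thalamic RNA of 9 samples, 3 per group, was described from 2 tables without values of single libraries. The authors deposited, per the file headers, a mean TPM for every group together with log2 fold changes, p-values and q-values. Per the submitters' processing notes, Bowtie2 2.2.3, TopHat2 2.0.12, HTSeq 0.6.0 and GRCm39 were used, in roles they do not state; the test program, strand setting and handling of multi-mapped reads are not given in the sources used here. Near-identical genes (Hspa1a and Hspa1b, Rn7s1 and Rn7s2, the Bcl2a1 family, and Itgam and Lilrb4a, each on 2 identifiers), antisense and overlapping genes are therefore uncertain. Listed genes have an absolute log2 of at least 1 and p-values under 0.05, as checked on the deposited values, so a gene absent from a table may have missed either limit. A mean of 0.0001 TPM was treated as a floor.

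Tables were joined on gene identifiers. The stroke mean was the same in both, and the deposited log2 fold changes were checked to be log2 ratios of the deposited means (largest difference 4.56e-11), so no pseudocount was added. The log2 ratio of mean TPM in mmpp over sham was classed as near (absolute value under 0.5), still on the stroke side, or past sham. The share of the stroke difference left is the difference of mmpp from sham divided by that of stroke from sham. The classing was tested on simulated data. No test was run, because members were selected on both contrasts and group means carry no spread. Python 3.11.15, pandas 2.3.3, numpy 2.4.6 and matplotlib 3.10.9 were used.

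The members, the 30 gene lists and the tests foregone were chosen with earlier results of these data known. Named genes were up to 3 members per list with the highest mean TPM, the 4 most extreme of each class with all means at least 1 TPM, those nearest the 0.5 limit, those moving the same way in both comparisons, and those with q-values under 0.05 in both tables; other genes named were chosen after their values were seen. Some genes are not reported here. Alternatives were other limits, pseudocounts, filters and scalings.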

Additional observations from a re-analysis of the deposited data

How the results depend on the processing

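No paired analysis was possible because the 2 tables used here hold group means only, and for the same reason no replicate was left out; the counts per sample that the labels name were not analysed here. Of 753 members, 235 ended near sham, 472 still above, 29 still below and 17 past it, with median log2 ratios of 1.62 for those higher and -0.22 for those lower after stroke. A limit of 0.25 gave 137 near, 503 above, 78 below and 35 past, and a limit of 1 gave 350 near, 394 above, 3 below and 6 past. A pseudocount of 1 TPM gave 372 near, 351 above, 7 past and a median of 0.68 for members higher after stroke, and 0.1 TPM gave 10 past. With all means at least 1 TPM, 203 were above and 4 past. With the authors' q-value under 0.05 for stroke against sham, 155 were near and 6 past. With p-values under 0.01 in both tables, 58 were near, 161 above, 5 below and 6 past, and the median of those lower after stroke was -0.10. In alternatives chosen after seeing the data, members with an absolute stroke log2 ratio of at least 1.5 gave 125 near and 11 past, and means of at least 0.1 TPM gave 10 past. The share of members higher after stroke that were still above sham ran between 59.9% and 89.1%, and the share of members lower after stroke that were near sham between 46.7% and 97.6%. Over 22 lists and 90 genes, 1212 of 1247 values stayed within the set limits, 35 moved (19 with the pseudocount of 1 TPM) and none reversed. Many of the 1212 were fixed in advance and say nothing on stability. Another limit changes no ratio, and a filter changes no ratio of a gene that it keeps. Only a pseudocount or scaling can move a gene, and a filter can also move a list median. Of 261 list medians compared, 242 stayed the same. Unknown depth limits every ratio with a low sham mean. In 114 members it was under 0.1 TPM.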

Other observations

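The members held 107 genes with clone names, of which 44 ended near sham, 60 stayed on the stroke side and 3 went past it. Over all members these shares were 31.2%, 66.5% and 2.26%. The authors' tables assigned a pathway to 281 members. In their lysosome pathway all 8 members, and in their cell cycle pathway all 8 members, were still above sham, at median log2 ratios of 2.62 and 2.46. In their pathway of actin cytoskeleton regulation 5 of 7 members were above sham and 2 were near it, at a median of 0.70. The members of these 3 pathways were all higher after stroke, and 80.5% of all such members were still above sham. Without Apoe, members higher after stroke summed to 16839 TPM in mmpp, 45102 TPM in stroke and 5489.6 TPM in sham.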
